A study of Ovis aries with 9 samples.

Results

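Myosin heavy chain is the motor of the thick filament, and each vertebrate carries a family of genes for it. In the sheep longissimus dorsi, the long muscle of the back, the family's sarcomeric members were followed in fetuses through 4 loci of the 22605 in the deposited expression table. The loci were chosen by name. A locus was taken if its gene name held LOC101113252, MYH8, LOC101111980, MYH1, MYH2 or MYH7, and a locus joining several of these genes was counted once. The 4 loci are the myosin-3 locus (LOC101113252, locus MSTRG.5520), the MYH8 locus (MSTRG.5519, named LOC101111723 in the table), the adult fast MYH locus (MSTRG.5526) and the MYH7 locus (MSTRG.4238). All 4 reached an FPKM of 1 in 3 or more libraries and were tested. A separate single transcript named LOC442994 (MYH1) did not meet that filter and is described on its own.

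The muscle came from fetuses of the Chinese merino breed at day 85, day 105 or day 135 of gestation, called D85, D105 and D135 here, and 3 RNA libraries stand for each day. The labels name no treatment and separate the 3 groups by age; they give no sex. More than one sequencer model is named for the series, with no link to libraries, and a difference in sequencer between days was not tested. Whether libraries of the same day are from different fetuses is not stated. The p-values therefore measure the spread between these 9 libraries only, and that spread may be technical. Values are FPKM, fragment numbers corrected for the length of the transcript and the size of the library. The correction is meant to let levels be set side by side between genes.

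Muscle fibres of a fetus pass through a sequence of myosins. MYH3 (embryonic) and MYH8 (neonatal, also called perinatal) serve developing fibres and are largely replaced around birth by MYH4, MYH1 and MYH2, the heavy chains of fast fibres, while MYH7 is the heavy chain of slow fibres and of the heart ventricle. The embryonic, neonatal and fast genes stand together in 1 cluster. In the RefSeq gene order of sheep chromosome 11 the cluster runs MYH13, MYH8, LOC101111980, MYH1, MYH2 and LOC101113252. MYH7 stands elsewhere, beside the gene of the heart atrial chain.

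The table does not separate all of these genes. The adult fast locus joins LOC101111980, described as myosin-4, with MYH1 and MYH2, and holds 71 transcripts, 5 of them reference transcripts. It therefore gives the fast chains as a sum, and no level of type IIb, IIx or IIa myosin can be read from it. The MYH7 locus joins MYH7 with LOC101120580, described as myosin-6, over 18 transcripts, 2 of them reference transcripts. The myosin-3 and MYH8 loci each hold 1 gene, with 4 and 6 transcripts. These genes are near copies of each other in sequence, and how fragments that match several of them were counted is not given in the sources used here. The length used to correct a joined locus is likewise not known. Its level beside other loci, its share and its rank hold only as far as that length is right.

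Total FPKM per library ranged from 395797 to 489270. The depth relative to D85 replicate 1 ranged from 0.993 to 1.07 in the D85 and D105 libraries and from 1.12 to 1.20 at D135. Between 2767 and 3068 loci per library were listed at 0 at D85 and D105, and between 3196 and 3249 at D135. These differences follow the day, and their part in the results was not tested. All 10 skeletal muscle markers were matched, and their summed level was 3212 to 3956 FPKM at D85, 3984 to 4527 at D105 and 10446 to 13170 at D135. Of 8 heart markers 5 were matched outside the MYH7 locus, and they summed to 1.37 to 4.36 FPKM in any library. D105 replicate 2 stood apart from its day. Its 8 tendon and cartilage markers summed to 332 FPKM, where D105 replicates 1 and 3 had 13.9 and 19.9, its 6 fibroblast markers to 6667 against 2455 and 2473, and its 5 adipocyte markers to 114 against 5.44 and 7.63. The part of these in the results was not tested.

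Both developmental myosins were abundant at D85 and D105 and lower at D135, the embryonic one far more so, while the adult fast and the slow locus were low at first and high at D135. At D135 the mean of the myosin-3 locus was 11.7-fold lower than at D105 and that of the MYH8 locus 3.09-fold lower. The adult fast locus was 7.19-fold higher and the MYH7 locus 6.08-fold higher. All 4 loci passed the test for D135 against D105, where 39.5% of tested loci passed, 4.47% higher and 35% lower. All 4 also passed for D135 against D85, where 46.6% of tested loci passed, 6.9% higher and 39.7% lower. The D135 libraries of all 4 loci overlapped neither the D105 nor the D85 libraries. Against D105 this held for 54.1% of tested loci, 6.43% higher and 47.7% lower, and against D85 for 58.2%, 9.42% higher and 48.8% lower. None of the 4 passed for D105 against D85 in limma at an adjusted p of 0.05, where 0.199% of tested loci passed, 0.145% higher and 0.0535% lower, and 1 of the 4 had an unadjusted p under 0.05. The background of lower calls depends on the scaling. For D135 against D105 it was 585 loci higher and 4579 lower as deposited, 1389 and 911 after median-of-ratios scaling, and 986 and 1072 after quantile normalization. Over all tested loci the median log2 change to D135 was -0.33 from D105 and -0.35 from D85 as deposited, and it was 0.013 and 0.0076 under median-of-ratios scaling.

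**Figure D1:**
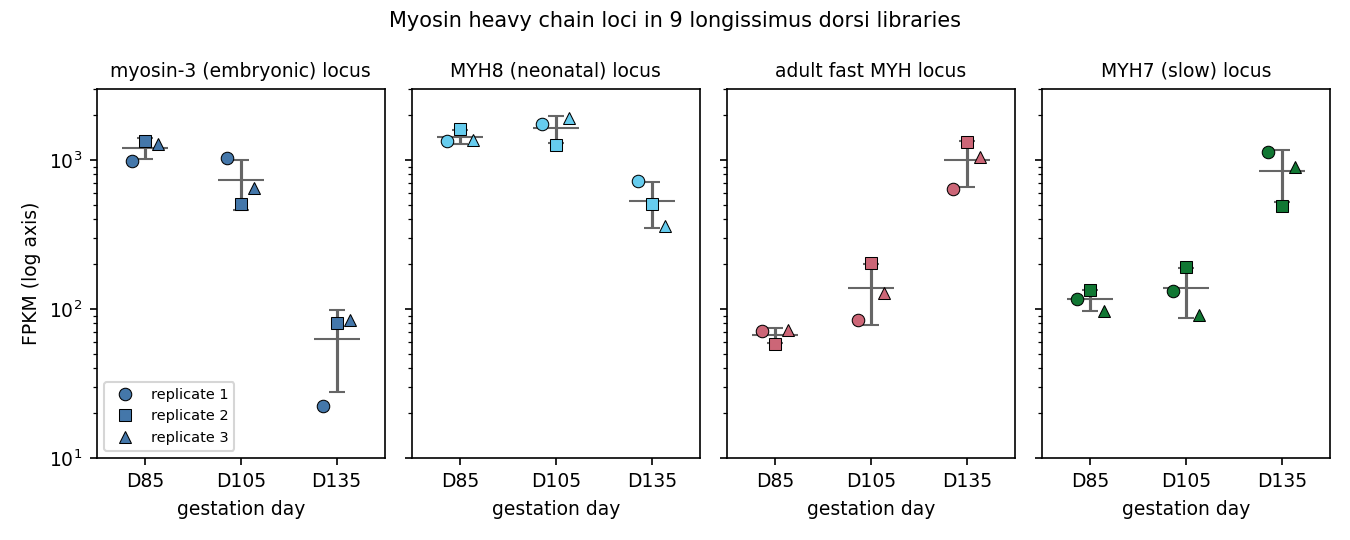
Level of each of the 4 loci in FPKM (vertical log axis) in the 3 libraries of each gestation day, with the mean and SD in grey and the replicate number as the symbol. The myosin-3 locus drops to between 22.4 and 84.8 FPKM at D135, below all earlier libraries, and the adult fast and MYH7 loci rise above all earlier libraries.

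The myosin-3 locus, the embryonic heavy chain, had 983, 1337 and 1289 FPKM in D85 replicates 1, 2 and 3. It had 1031, 510 and 653 FPKM at D105, and 22.4, 81.0 and 84.8 FPKM at D135. The 3 D135 libraries were the lowest of all 9, and replicate 1 of that day lay well under the other two. D85 and D105 overlapped through D105 replicate 1. The locus fell by 3.68 on the log2 scale from D105 to D135 (SE 0.50, limma adjusted p = 0.00201) and by 4.44 from D85 to D135 (SE 0.50, adjusted p = 0.000472). All log2 changes here are of FPKM + 1. The log2 change from D85 to D105 was -0.77 (SE 0.50, adjusted p = 0.587), with an unadjusted 95% interval of -1.92 to 0.38. In bulk muscle, fewer cells that make a message and less of it per cell cannot be told apart.

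The MYH8 locus, the neonatal heavy chain, had 1334, 1618 and 1364 FPKM at D85, then 1757, 1260 and 1911 FPKM at D105. At D135 it had 726, 508 and 361 FPKM. The earlier days overlapped each other, and every D135 library lay below every earlier one. It fell by 1.66 on the log2 scale from D105 to D135 (SE 0.27, adjusted p = 0.00363) and by 1.49 from D85 to D135 (SE 0.27, adjusted p = 0.00324). Relative to the median of all tested loci these changes were -1.33 and -1.13. From D85 to D105 the log2 change was 0.17 (SE 0.27, adjusted p = 0.847). It was 0.35 without D105 replicate 2 and 0.26 without D85 replicate 2, and 0.114 and 0.0538 without D105 replicates 1 and 3, at adjusted p of 0.691 to 0.973. Even at D135 the locus kept a mean of 532 ± 184 FPKM (SD, n = 3) and ranked 54 among 22169 named loci, against rank 344 for the myosin-3 locus.

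The adult fast locus had 70.9, 57.7 and 71.9 FPKM at D85, 84.8, 205 and 128 FPKM at D105, and 636, 1319 and 1045 FPKM at D135. The 3 days did not overlap, and each day lay above the one before. Only this 1 of the 4 loci kept D105 apart from D85, where the libraries of the 2 days did not overlap at 18.4% of tested loci, 8% higher and 10.4% lower. Its log2 change from D85 to D105 was 0.96 (SE 0.35, adjusted p = 0.332), and without D105 replicate 2 it was 0.64 (adjusted p = 0.532). From D105 to D135 it rose by 2.87 (SE 0.35, adjusted p = 0.00150), and from D85 to D135 by 3.83 (SE 0.35, adjusted p = 0.000249). Its rank among named loci went from 327 at D85 to 164 at D105 and 17 at D135.

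A separate transcript named LOC442994 (MSTRG.5527) was listed at 73.5 FPKM in D105 replicate 3 and at 0 in the other 8 libraries. It holds no reference transcript. With its value added to the adult fast locus, the log2 change from D85 to D105 was 1.18 (SE 0.38, adjusted p = 0.271) and that from D105 to D135 was 2.65 (SE 0.38, adjusted p = 0.00244). The calls did not depend on where that transcript was counted.

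The MYH7 locus, the slow heavy chain, had 117, 134 and 96.4 FPKM at D85 and 131, 193 and 91.4 FPKM at D105. At D135 it had 1126, 495 and 902 FPKM. D85 and D105 overlapped, and all D135 libraries lay above both. It rose by 2.58 on the log2 scale from D105 to D135 (SE 0.35, adjusted p = 0.00207) and by 2.78 from D85 to D135 (SE 0.35, adjusted p = 0.000766). From D85 to D105 the log2 change was 0.20 (SE 0.35, adjusted p = 0.869), and it was -0.067 without D105 replicate 2. The locus also holds a gene described as myosin-6, an atrial chain, so other heart genes were read beside it. MYL7, the atrial light chain, was listed at 0 in all D105 and D135 libraries, and MYBPC3, the cardiac myosin-binding protein, was at most 0.0796 FPKM in any library. TNNI3, cardiac troponin I, had 0.622 to 3.48 FPKM and RYR2, the cardiac ryanodine receptor, 0.436 to 0.896 FPKM, with all days overlapping.

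**Figure D2:**
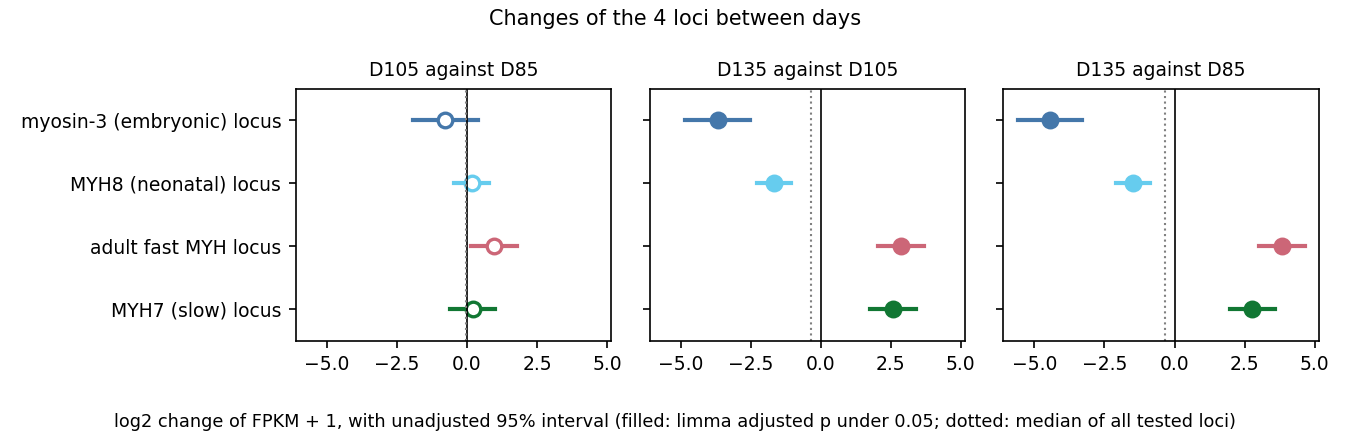
Log2 change of FPKM + 1 (horizontal axis) of each locus in the 3 comparisons, with unadjusted 95% intervals, filled points for an adjusted p under 0.05 and a dotted line at the median of all tested loci. All 4 loci passed in both comparisons with D135 and none for D105 against D85.

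For each locus the change over the later interval was larger in size than that over the earlier one, yet in limma none of the 4 differences between the intervals passed at an adjusted p of 0.05. The later minus the earlier log2 change was -2.91 (SE 0.86, adjusted p = 0.113) for the myosin-3 locus and -1.83 (SE 0.46, adjusted p = 0.0925) for the MYH8 locus. It was 1.90 (SE 0.61, adjusted p = 0.129) for the adult fast locus and 2.38 (SE 0.61, adjusted p = 0.0951) for the MYH7 locus. All 4 had an unadjusted p under 0.05, and 0.352% of tested loci passed, 0.0764% higher and 0.275% lower. Both intervals use the D105 libraries. The later interval is also the longer one in days, and the contrast takes no account of that.

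The 4 loci were then summed, to ask how the heavy chain message was made up. The sum was 2824 ± 321 FPKM at D85, 2651 ± 433 at D105 and 2436 ± 65.5 at D135 (SD, n = 3), and the libraries of the 3 days overlapped. In FPKM as deposited, the skeletal muscle markers summed higher in every D135 library than in every earlier one, while the heavy chains did not. The rise of the marker sum came mostly from ACTA1 and CKM. Their means went from 1103 and 633 FPKM at D85 to 5292 and 3501 FPKM at D135. The markers NEB, TTN and CAV3 were also higher in every D135 library than in every earlier one. DES, RYR1, MYOG and DMD overlapped earlier libraries, and MYOD1 was lower in every D135 library. The heavy chain sum was not tested under another scaling, and its parts moved with the scaling. From D85 to D135 the adult fast locus changed by a log2 of 3.827 as deposited, 3.715 under quantile normalization and 4.298 under median-of-ratios scaling. For the MYH8 locus these values were -1.487, -1.827 and -1.013. The makeup of the deposited sum changed. The myosin-3 and MYH8 loci together gave 92.5%, 93.9% and 94.0% of the sum at D85. They gave 92.8%, 81.7% and 92.1% at D105, and 29.8%, 24.5% and 18.6% at D135. D105 replicate 2 was the library of its day with the smallest developmental share, and the D135 libraries stood far below all others.

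By locus, the myosin-3 share went from 42.5% ± 3.23 at D85 to 27.1% ± 6.25 at D105 and 2.60% ± 1.48 at D135 (SD, n = 3). The MYH8 share was 51.0% ± 2.49, 61.8% ± 5.98 and 21.7% ± 6.93. The adult fast share was 2.41% ± 0.514, 5.62% ± 3.44 and 41.3% ± 14.9. The MYH7 share was 4.11% ± 0.639, 5.51% ± 2.97 and 34.4% ± 12.5. Without D105 replicate 2 the D105 means were 3.70% for the adult fast and 3.82% for the MYH7 locus. The shares are a description without a test, since they must sum to the whole in each library. They also rest on the unknown lengths used for the joined loci.

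**Figure D3:**
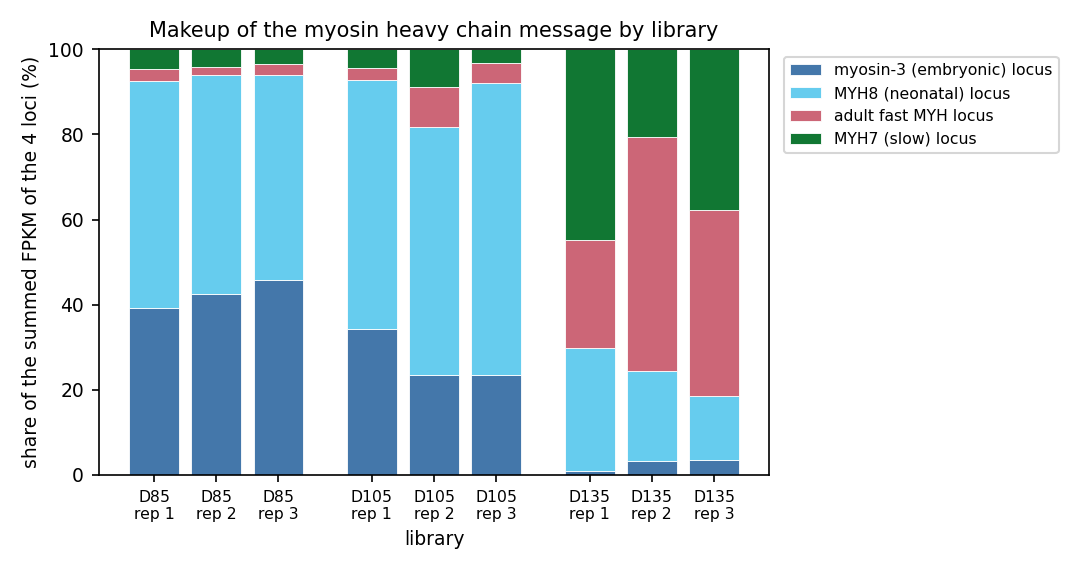
Share of the summed FPKM of the 4 loci (vertical axis, percent) held by each locus in each of the 9 libraries. The myosin-3 and MYH8 shares fill most of every D85 and D105 bar, and the adult fast and MYH7 shares most of every D135 bar.

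A ratio of 2 loci within a library does not move with the scaling of that library. The ratio of the myosin-3 locus to the MYH8 locus was 0.737, 0.827 and 0.945 in D85 replicates 1, 2 and 3. It was 0.587, 0.405 and 0.342 at D105, and 0.0309, 0.160 and 0.235 at D135. The 3 days did not overlap, each lying below the one before. In these libraries the embryonic message was thus lower relative to the neonatal one after each interval. The mean log2 ratio of FPKM + 1 was -0.27 ± 0.18 at D85, -1.21 ± 0.40 at D105 and -3.22 ± 1.53 at D135 (SD, n = 3). An exact permutation test of the between-day F over all 1680 assignments gave p = 0.00357, the smallest it can give, and 0.00714 adjusted over the 2 ratios tested. Between D85 and D105 alone the exact two-sided permutation p was 0.1, the smallest that 3 against 3 libraries allow.

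The ratio of the adult fast locus to the MYH7 locus had no such order. It was 0.606, 0.431 and 0.746 at D85, 0.647, 1.06 and 1.40 at D105, and 0.565, 2.67 and 1.16 at D135. The days overlapped. In FPKM, D135 replicate 1 held more slow than fast message, while the other D135 libraries held more fast than slow. The mean log2 ratio was -0.78 ± 0.39 at D85, -0.02 ± 0.56 at D105 and 0.27 ± 1.12 at D135 (SD, n = 3). The exact permutation p was 0.271, also after adjustment over the 2 ratios. The mean difference between D135 and D85 was 1.05. Leaving out single libraries gave 0.47 (without D135 replicate 2, exact permutation p = 0.339) to 1.59 (without D135 replicate 1, exact permutation p = 0.0607), and the p ranged from 0.0607 to 0.55.

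**Figure D4:**
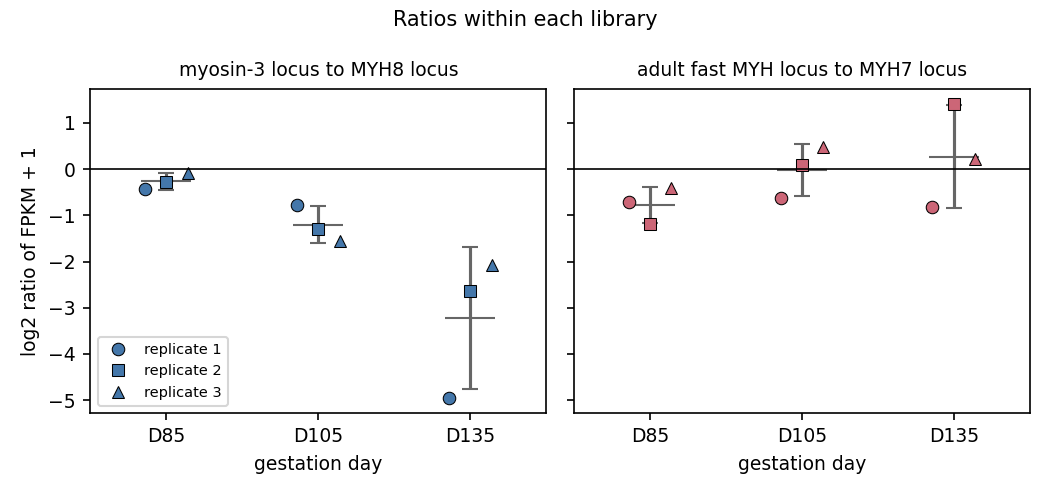
Log2 ratio of FPKM + 1 (vertical axis) of the myosin-3 to the MYH8 locus and of the adult fast to the MYH7 locus in each library, by gestation day, with the mean and SD in grey. The first ratio steps down over the 3 days without overlap, and the second overlaps at all days.

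The order of the loci by level was fixed at D85 and varied between the libraries of the later days. At D85 the order was MYH8, myosin-3, MYH7 and adult fast in all 3 libraries, and MYH8 and myosin-3 overlapped slightly across libraries (lowest MYH8 1334 FPKM, highest myosin-3 1337 FPKM). At D105 MYH8 (1260 to 1911 FPKM) lay above myosin-3 (510 to 1031 FPKM), and both lay above the adult fast and MYH7 loci, which overlapped. At D135 the adult fast (636 to 1319 FPKM), MYH7 (495 to 1126 FPKM) and MYH8 loci (361 to 726 FPKM) all overlapped one another, the order differed in each of the 3 libraries, and only the last place, of myosin-3, was shared. The top locus at D135 was MYH7 in replicate 1 and the adult fast locus in replicates 2 and 3.

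The light chains are small subunits that clasp the neck of each heavy chain. Of 10 listed, 8 loci were found (MYL6 and MYL6B share 1) and 7 were tested. In limma none passed for D105 against D85, and 0 had an unadjusted p under 0.05. By D135, 2 had risen and 1 had fallen relative to D105, and 3 had risen and 1 had fallen relative to D85. The list's median log2 change was 0.56 and 1.02, where all tested loci had -0.33 and -0.35. The 3 and 4 of 7 that passed stand beside 39.5% and 46.6% of all tested loci (4.47% higher and 35% lower, then 6.9% higher and 39.7% lower). Median-of-ratios scaling gave 3 higher and 0 lower for D135 against D105, where it gave 1389 higher and 911 lower over all 13086 tested loci.

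MYL2, the regulatory light chain of slow and ventricular muscle, had 413, 588 and 300 FPKM at D85. It had 353, 507 and 252 FPKM at D105 and 3735, 1687 and 3040 FPKM at D135. All D135 libraries lay above the others, and the log2 rise from D105 to D135 was 2.91 (SE 0.38, adjusted p = 0.00186). The joined MYL6 and MYL6B locus, which holds a non-muscle and a slow-muscle essential light chain, had 119, 105 and 106 FPKM at D85, 164, 178 and 102 FPKM at D105 and 641, 275 and 425 FPKM at D135. It rose by 1.54 from D105 to D135 (SE 0.32, adjusted p = 0.00774), and D135 lay above all earlier libraries.

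MYL4, the essential light chain of embryonic muscle and of the atrium, had 1610, 878 and 1539 FPKM at D85. It had 926, 726 and 457 FPKM at D105 and 192, 238 and 501 FPKM at D135. D135 did not overlap D85, and D135 replicate 3 exceeded D105 replicate 3. The fall from D85 to D135 was -2.19 (SE 0.42, adjusted p = 0.00434) on the log2 scale. That from D105 to D135 was -1.25 (SE 0.42, adjusted p = 0.0474), and under median-of-ratios scaling -0.79 (adjusted p = 0.266). That second call was also lost, at adjusted p of 0.0589 to 0.136, without D85 replicate 1 or 3, D105 replicate 1 or 2, or D135 replicate 1 or 2.

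The fast light chains were already high before the adult fast heavy chains rose. MYLPF, the fast regulatory light chain, had 2495 to 3840 FPKM at D85 and 4417 to 5810 FPKM at D135, a log2 change of 0.67 (SE 0.29, adjusted p = 0.0931). MYL1, the fast essential light chain, had 381, 468 and 496 FPKM at D85, 575, 558 and 616 FPKM at D105 and 585, 1259 and 1083 FPKM at D135. It rose by 1.06 from D85 to D135 (SE 0.27, adjusted p = 0.0138), and D135 replicate 1 alone stayed within the D105 range. MYL3, a slow and ventricular light chain, stayed between 5.46 and 13.2 FPKM in every library, and its log2 change from D85 to D135 was -0.16 (SE 0.33, adjusted p = 0.711). MYL10, a little-studied regulatory light chain, ranged from 0.314 to 6.71 FPKM and did not pass.

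**Figure D5:**
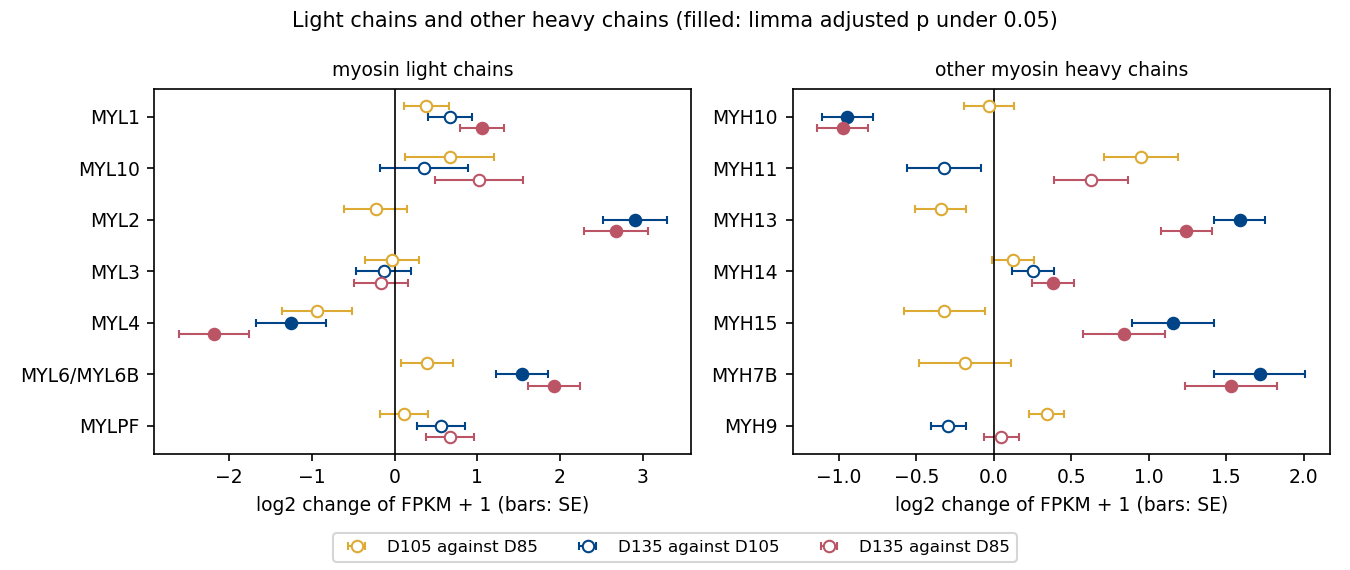
Log2 change of FPKM + 1 with its SE (horizontal axis) for the myosin light chains and for the heavy chains outside the 4 loci, in 3 comparisons, with filled points for an adjusted p under 0.05. MYL2 rises by 2.91 and MYL4 falls by 1.25 from D105 to D135, and among heavy chains MYH7B, MYH13 and MYH15 rise and MYH10 falls.

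Of 9 other heavy chain genes listed, 7 had a locus of their own and all 7 were tested. For D105 against D85 none passed in limma, and 2 had an unadjusted p under 0.05. By D135, 3 had risen and 1 had fallen relative to D105, and 4 had risen and 1 had fallen relative to D85, with list medians of 0.25 and 0.63. The 4 and 5 of 7 that passed stand beside 39.5% and 46.6% of all tested loci (4.47% higher and 35% lower, then 6.9% higher and 39.7% lower). Median-of-ratios scaling gave 4 higher and 0 lower, and 6 higher and 1 lower. Over all 13086 tested loci that scaling gave 1389 higher and 911 lower, then 1952 and 1642.

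MYH7B, a sarcomeric heavy chain related to MYH7, had 5.48, 6.83 and 5.37 FPKM at D85, 4.77, 6.01 and 4.44 FPKM at D105 and 31.4, 12.2 and 17.2 FPKM at D135. It rose by 1.71 from D105 to D135 (SE 0.30, adjusted p = 0.00449), and D135 lay above all earlier libraries. MYH13, the heavy chain known from eye muscles, had 1.35, 1.31 and 0.970 FPKM at D85, 0.574, 1.05 and 0.628 FPKM at D105 and 4.27 ± 0.864 FPKM at D135 (SD, n = 3). All D135 libraries lay above the others. It rose by 1.59 from D105 to D135 (SE 0.17, adjusted p = 0.000990). Its later change, over the longer interval, exceeded its earlier one by 1.93 (SE 0.29, adjusted p = 0.0454). MYH13 stands next to MYH8 in the gene order, and its level at D135 was 0.376% to 0.518% of that of the adult fast locus. Whether fragments of its near-identical neighbours contributed was not tested.

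MYH15, a slow-type heavy chain also known from eye muscles, had 1.39, 0.831 and 0.196 FPKM at D85, 0.267, 0.718 and 0.240 FPKM at D105 and 2.62, 1.70 and 2.06 FPKM at D135. It rose by 1.16 from D105 to D135 (SE 0.26, adjusted p = 0.0114). Only the D135 libraries and D85 replicate 1 reached 1 FPKM, so MYH15 met the filter through the day where it was high. Its calls as higher, counted above, are limited by that. The call for D135 against D85 (0.84, adjusted p = 0.0315) was lost without D85 replicate 2 or 3 or D135 replicate 1 or 3 (0.0619 to 0.0918). With a pseudocount of 0.1 the adjusted p was 0.0707. MYH10, a non-muscle heavy chain, fell from 22.8 ± 2.85 to 11.5 ± 2.80 FPKM over that interval (SD, n = 3), a log2 change of -0.95 (SE 0.16, adjusted p = 0.00461), and of -0.51 (adjusted p = 0.0717) under median-of-ratios scaling. MYH14, a further non-muscle chain, passed for D135 against D85 alone, with a log2 change of 0.38 (SE 0.14, adjusted p = 0.0488). It lost that call, at adjusted p of 0.0522 to 0.140, without any single library other than D105 replicate 2. MYH9, non-muscle, and MYH11, of smooth muscle, passed in no comparison between days, with levels of 15.9 to 24.5 and 4.23 to 12.8 FPKM. MYH9 and MYH11 kept every D105 library above every D85 library. The libraries of these days did not overlap at 18.4% of all tested loci, 8% higher and 10.4% lower.

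The thick-filament list held 19 chaperones, myosin-binding proteins, M-band proteins and other partners of myosin, of which 18 were tested. For D105 against D85 none passed in limma, with 3 at an unadjusted p under 0.05. In each comparison with D135, 6 rose and 2 fell, with list medians of 0.27 against D105 and 0.32 against D85. These 8 of 18 stand beside 39.5% and 46.6% of all tested loci. By direction, 4.47% of all tested loci were called higher and 35% lower against D105, and 6.9% and 39.7% against D85. Median-of-ratios scaling gave 9 higher and 0 lower in both, and quantile normalization 3 and 1, then 6 and 0, so the lower calls depend on the scaling. Over all 13086 tested loci the first gave 1389 higher and 911 lower, then 1952 and 1642. Quantile normalization gave 986 and 1072 there, then 1599 and 1943. Without D105 replicate 2 the counts were 5 higher and 3 lower against D105, and 8 and 2 against D85.

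MYBPC2, the fast myosin-binding protein C, had 4.05, 8.83 and 7.77 FPKM at D85. It had 42.2, 29.7 and 76.9 FPKM at D105 and 39.7, 189 and 113 FPKM at D135. Every D105 library lay above every D85 library, while D135 replicate 1 was within the D105 range. The log2 change from D85 to D105 was 2.63 (SE 0.58, adjusted p = 0.144), and the rise from D85 to D135 was 3.66 (SE 0.58, adjusted p = 0.00187). MYBPC1, the slow form, had 190 to 219 FPKM at D85 and D105 and 249 to 283 FPKM at D135, a log2 change of 0.30 from D105 to D135 (SE 0.10, adjusted p = 0.0391) that had an adjusted p of 0.474 after quantile normalization. The MYBPC1 call was also lost, at adjusted p of 0.0529 to 0.111, without D85 replicate 1 or any 1 of the D105 and D135 libraries.

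TTN, the giant molecular ruler of the filament, rose from 828 ± 50.6 FPKM at D105 to 1414 ± 53.9 at D135 (SD, n = 3). The log2 change was 0.77 (SE 0.14, adjusted p = 0.00496, and 0.0521 after quantile normalization). MYOM1 and MYOM2, cross-linkers of the M-band, rose by 0.58 and 0.84 over that interval, MYOM1 with an adjusted p of 0.0123, and of 0.0563 after quantile normalization. MYLK2, the kinase of skeletal muscle light chains, rose by 1.05, and TRIM54, a titin-binding ring-finger protein, by 0.72. HSP90AA1, a chaperone of myosin folding, was lower by a log2 change of -0.61 (adjusted p = 0.0354), and of -0.15 (adjusted p = 0.690) under median-of-ratios scaling. UNC45B, the muscle chaperone of the myosin head, was lower at D135 than at D85 by -0.82 (adjusted p = 0.0180), and by -0.35 with an adjusted p of 0.301 after that scaling. Without D105 replicate 1 or 3 or D135 replicate 1 or 2 the HSP90AA1 call was lost (adjusted p 0.0775 to 0.103), and without D135 replicate 2 or 3 that of UNC45B (0.0517 and 0.0522).

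The last list held 45 regulators known to act on the choice of myosin gene, of which 40 were tested. For D105 against D85 none passed in limma, with 4 at an unadjusted p under 0.05. THRA, a thyroid hormone receptor, and NFIX, a factor of fetal myogenesis, which had the highest mean levels of the list over all 9 libraries, gave log2 changes of 0.15 (adjusted p = 0.795) and 0.40 (adjusted p = 0.582). By D135, 3 had risen and 6 had fallen relative to D105, and 4 had risen and 11 had fallen relative to D85, with list medians of -0.21 and -0.08. These 9 and 15 of 40 stand beside 39.5% and 46.6% of all tested loci (4.47% higher and 35% lower, then 6.9% higher and 39.7% lower). After median-of-ratios scaling the counts were 7 higher and 0 lower, then 10 and 1, and after quantile normalization 8 and 0, then 10 and 2. All 13086 tested loci gave 1389 higher and 911 lower under the first, then 1952 and 1642. Under the second they gave 986 and 1072, then 1599 and 1943. The balance of higher and lower regulators therefore depends on the scaling.

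Some single regulators kept the call given here in every alternative setting in which they were tested. ESRRA, a nuclear receptor of oxidative metabolism, had 2.16, 2.46 and 1.67 FPKM at D85, 2.41, 2.27 and 2.56 FPKM at D105 and 4.13, 3.75 and 3.84 FPKM at D135, and rose by 0.52 from D105 to D135 (SE 0.11, adjusted p = 0.00997). PPP3CA, a catalytic subunit of calcineurin, had 6.76, 8.53 and 7.77 FPKM at D85, 8.89, 13.2 and 9.96 FPKM at D105 and 17.0, 13.8 and 15.8 FPKM at D135, and rose by 0.93 from D85 to D135 (SE 0.15, adjusted p = 0.00230). VGLL3, a TEAD cofactor, had 7.65, 7.97 and 8.33 FPKM at D85, 6.61, 3.72 and 5.47 FPKM at D105 and 3.61, 3.52 and 2.37 FPKM at D135. It fell by 1.12 from D85 to D135 (SE 0.19, adjusted p = 0.00255). In all 3 genes D135 did not overlap D85, which held for 58.2% of tested loci, 9.42% higher and 48.8% lower.

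Other regulators lost their call under median-of-ratios scaling. MEF2C, a myogenic MADS-box factor, had a log2 change of -1.10 from D105 to D135 (adjusted p = 0.0151), and of -0.68 (adjusted p = 0.134) after median-of-ratios scaling. Under the same scaling NFATC4, a calcineurin target, went from -0.72 (adjusted p = 0.00927) to -0.40 (adjusted p = 0.108), and MYOD1, a myogenic determination factor, from -0.60 (adjusted p = 0.0418) to -0.22 (adjusted p = 0.504). From D85 to D135, VGLL2, a muscle TEAD cofactor, went from -1.03 (adjusted p = 0.00545) to -0.60 (adjusted p = 0.0816), and MYF5, a determination factor, from -2.21 (adjusted p = 0.0382) to -1.94 (adjusted p = 0.0889). A further pair kept its calls under the scalings run. THRB, a thyroid hormone receptor, rose by 0.86 from D85 to D135 (SE 0.29, adjusted p = 0.0381), and SIX2, a homeobox gene near 1 FPKM, by 0.53 from D105 to D135 (adjusted p = 0.0483). SIX2 had 1.24, 0.818 and 0.596 FPKM at D85, 0.309, 0.747 and 0.245 at D105 and 0.871, 1.11 and 1.17 at D135. Its D135 and D85 libraries thus overlapped. The SIX2 call was also lost at a pseudocount of 0.1, with no filter beyond a value above 0, with the replicate block and with only the 6 libraries of the 2 days (adjusted p 0.0538 to 0.0760). THRB lost its call without D85 replicate 2 or 3 or any 1 D135 library (adjusted p 0.0563 to 0.109), and SIX2 without D85 replicate 2, D105 replicate 1 or 3, or D135 replicate 1 (0.0628 to 0.129). MEF2C lost it without D135 replicate 2 (0.0523), MYOD1 without D85 replicate 3, D105 replicate 1 or 3 or any 1 D135 library (0.0581 to 0.121), and MYF5 without D85 replicate 2 or 3 or any 1 D135 library (lowest 0.0504).

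For each locus, the named loci of the most similar pattern were found by Pearson's r of log2(FPKM + 1) over the 9 libraries, among 5531 loci with a symbol and a mean of at least 5 FPKM. These values have no p, since the 9 libraries fall into 3 days and share that difference. Nearest to the MYH7 locus were TNNT1, slow troponin T (r = 0.993), PDLIM1, a PDZ and LIM protein, MYL2, TPM3, slow tropomyosin, and the MYL6 and MYL6B locus. TNNT1 had means of 44.8, 71.7 and 646 FPKM and TPM3 of 73.1, 84.6 and 541 FPKM at D85, D105 and D135. Nearest to the adult fast locus were CKMT2, the mitochondrial creatine kinase of muscle (r = 0.994), AQP7, a glycerol channel, SUCLA2, a citric acid cycle subunit, PDLIM3 and TUBA8, an alpha-tubulin. CKMT2 had means of 1.13, 2.48 and 11.8 FPKM.

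Nearest to the myosin-3 locus were RACGAP1, of the cytokinesis machinery (r = 0.996), PPIA, cyclophilin A, STMN1, which destabilises microtubules, NUSAP1, a spindle protein, and SEC24C, of secretory vesicle coats. RACGAP1 had means of 13.1, 10.6 and 3.59 FPKM and STMN1 of 67.6, 47.6 and 14.9 FPKM. The 3 markers of satellite and dividing cells summed to 34.6 to 49.0 FPKM at D85, 32.4 to 36.6 at D105 and 6.71 to 10.8 at D135. Their part in the pattern of the myosin-3 locus was not tested. Nearest to the MYH8 locus were IRF3, an interferon regulatory factor (r = 0.989), RNF167, a ubiquitin ligase, TOR1AIP1, of the nuclear envelope, KDM5C, a histone demethylase, and MPPE1. These 5 had a much narrower range than MYH8 itself, IRF3 for one going from 9.43 FPKM at D105 to 5.32 at D135.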

How the data were processed

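RNA from longissimus dorsi was sequenced in 9 libraries, 3 per day. The authors deposited FPKM, 1 column for each library (per the file headers). The submitters' processing notes name cutadapt, Bowtie2 and TopHat2. Genome build and counting: not given in the sources used here, hence no coordinates are printed. FPKM holds no counts, so depth in reads is unknown. Names came from the table and from a RefSeq table (ARS-UI_Ramb_v3.0), which matched 81 of 83 entries of 4 gene lists and 61 of 67 entries of 11 marker lists.

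Of 22605 loci, the 13086 that reached FPKM 1 in 3 or more libraries entered a single limma fit (version 3.58.1, R 4.3.3, eBayes with a trend) of log2(FPKM + 1) on all 9 libraries, without a block. Tests were two-sided, p-values were adjusted by Benjamini-Hochberg over all tested loci, and the threshold was 0.05. The 2 within-library ratios were tested by exact permutation. The members and lists were chosen with earlier results of these data known. Every member, other heavy chain and light chain is named, with up to 6 called genes per comparison of the other 2 lists (the 2 highest where none was called) and the 5 nearest loci per member. On data simulated for D105 against D85, limma recovered 79 of 100 loci changed by a log2 of 1 and 90 of 100 changed by 2. There were 10 false calls among 13086 loci. The simulated noise was normal, loci of low level were not among those changed, and no other locus differed between days. These counts therefore do not give the power of the real comparison, and an uncalled change there is not shown to be absent. Alternatives changed the pseudocount, filter, scaling, variance model, libraries and block; adding the separate LOC442994 transcript was chosen after seeing the data. Figures used matplotlib 3.10.9 in Python 3.11.15.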

Additional observations from a re-analysis of the deposited data

How the results depend on the processing

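The 8 called changes of the 4 loci kept their direction and an adjusted p under 0.05 in all 170 refits, with a highest adjusted p of 0.0238 (MYH8, D135 against D85, median-of-ratios scaling, log2 change -1.01). None of the 85 refits of D105 against D85 passed (lowest adjusted p 0.202), and none of the 81 refits of the difference between intervals did (0.0672 to 0.316). The change of MYH7 from D85 to D105 was the one locus value that reversed: leaving out single libraries gave -0.067 to 0.47, with the negative value without D105 replicate 2.

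Counts of list members moved more. With loci at FPKM 5 or more only, which leaves fewer loci to test, 2 other heavy chains passed in each comparison with D135, against 4 and 5, and 9 regulators for D135 against D85, against 15. MYH13, MYH14 and MYH15 stayed under 5 FPKM in every library and were not tested there, so their calls were not lost in a test. Of the 7045 loci left, 451 were higher and 2820 lower against D105, and 623 and 3092 against D85. For D135 against D105 the thick-filament count of 8 became 5 with no filter beyond a value above 0 and 4 after quantile normalization, and the regulator count of 9 became 3 when only the 6 libraries of those days were fitted; the cause was not tested. Leaving out single libraries gave 5 to 8 and 5 to 10 thick-filament partners, 3 to 8 and 9 to 17 regulators (against D105, then D85), and 3 to 5 other heavy chains against D85. The libraries whose absence moved a count by over 1.5 times were D105 replicates 1 and 3 and D135 replicates 1 and 2 against D105, and D85 replicates 2 and 3 and all D135 replicates against D85.

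Replicate numbers did not pair the libraries: deviations from the day means correlated at -0.066 to 0.060 in 9 same-numbered pairs, 0 of them over 0.1. With the replicate number as a block, the regulator count for D135 against D105 was 4, the light chain count there was 2, and the myosin-3 fall kept an adjusted p of 0.00943. Permuting days within a replicate number gave an exact p of 0.0278 for the myosin-3 to MYH8 ratio and 0.278 for the other ratio. With 3 libraries per day and no read counts, a log2 change as small as that of MYH8 from D85 to D105 (0.17, SE 0.27) was not detectable.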

Other observations

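Within D135, some fast and slow isoforms were high in different libraries. Replicate 1 had the highest MYH7 (1126 FPKM), MYL2 (3735 FPKM) and MYH7B (31.4 FPKM) and the lowest adult fast locus (636 FPKM), MYL1 (585 FPKM) and MYBPC2 (39.7 FPKM) of its day. Replicate 2 had the reverse in each of these, with 495 FPKM of MYH7 and 1319 FPKM of the adult fast locus. Over the light chains, thick-filament partners and other heavy chains with a mean of at least 5 FPKM, 4 of 27 loci (MYL1, MYLPF, MYBPC2 and TTN) ordered the 3 D135 libraries as the adult fast locus did, and 4 of 27 (MYL2, the MYL6 and MYL6B locus, MYBPC1 and MYH7B) ordered them as MYH7 did. With 6 possible orders these counts are no more than an even spread over the orders would give. The genes were singled out after their values were seen, and no test was made. MYL3, a slow light chain, did not follow, with its highest D135 value, 8.09 FPKM, in replicate 2 and 6.72 FPKM in replicate 1.

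The myosin-3 locus was also lowest in D135 replicate 1, at 22.4 FPKM against 81.0 and 84.8, while MYH8 was highest there, at 726 FPKM against 508 and 361. The level of the embryonic chain relative to the neonatal one in that library (0.0309) was lower than in D135 replicates 2 and 3 (0.160 and 0.235).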
